A study of Homo sapiens with 8 samples.

Results

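The genes described here are 10 regulators of apoptosis from the BCL2 family, listed by name, with earlier results of these data known. They are the pro-survival genes MCL1, BCL2L1, BCL2A1 and BCL2, the pore former BAK1, and the BH3-only genes PMAIP1, BAD, BID, BCL2L11 and BIK. All 10 were found among the 27946 genes of the deposited table, where they take up 46 of its 65572 RefSeq transcripts. Levels are given in FPKM, which is reads per kilobase of transcript scaled to the reads of the library, so that levels of different genes can be compared per length.

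The BCL2 family decides whether the outer membrane of the mitochondria stays intact. Pro-survival proteins hold the pore formers BAK1 and BAX in check, and BH3-only proteins bind the pro-survival proteins or activate the pore formers directly, which lets cytochrome c out and starts the caspases. Each BH3-only protein has its own partners: the product of PMAIP1, NOXA, binds mainly MCL1 and A1, the product of BCL2A1, while BAD binds BCL2 and BCL-XL, the product of BCL2L1. Endothelial cells depend on this balance during the growth and pruning of vessels, and many cells that withstand stress do so with a high level of MCL1 or BCL-XL.

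The cells were EA.hy926, a hybrid line that arose from the fusion of umbilical vein endothelium with a lung carcinoma line. Ribosome-depleted RNA was sequenced from 2 libraries of control cells, 3 clones without the enhancer E2 (ΔE2) and 3 clones without SE12313-b (ΔSE12313-b), a neighbouring element of the same super-enhancer that had been inactive in reporter assays. The clones were grown from single cells after delivery of Cas9 with guide RNAs, so each group of deletions is a set of clones of 1 line, and p-values measure the spread between these clones and libraries alone. For the proliferation assay, the control cells had been given guide RNAs and were grown beside the clones, and whether the control RNA came from these cells is not given in the sources used here. Neither Cas9 nor growth from single cells is described for the control. Against it, a deletion therefore cannot be told apart from these steps. Both deleted elements are non-coding, and no transcript of the table checks them directly.

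Between 12067553 and 19101112 reads per library stood behind the values, and between 7802376 and 13374180 of them fell on the genes. Of 10 endothelial markers 6 were over 1 FPKM in every library. The summed level of the 10 was 344 to 345 FPKM in the control, 341 to 492 in ΔE2 and 342 to 484 in ΔSE12313-b, with CLDN5 at 0 throughout. ENG and CDH5 gave most of this sum, and single markers moved in different directions. In the control, ΔE2 and ΔSE12313-b, mean FPKM was 1.92, 0.537 and 0.515 for VWF, 5.98, 13.9 and 26.0 for PECAM1, and 7.68, 18.7 and 16.6 for ERG. The 5 epithelial markers, of which KRT8 and KRT18 gave nearly the whole sum, added up to 232 to 239 FPKM in the control, 613 to 752 in ΔE2 and 541 to 669 in ΔSE12313-b, with CDH1 at 0. The summed fibroblast markers stayed at or under 0.299 FPKM and the leukocyte markers at or under 2.68 FPKM. The part of these shifts in the results below was not tested, and in RNA from whole cultures, fewer cells of a type and less RNA per cell cannot be told apart.

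Of the 10 genes, 8 were high enough to be tested, and BCL2 and BIK were not. BCL2A1 entered the test through both control libraries and 1 ΔE2 clone, so the filter itself favoured a difference there, and the counts that follow are a description. A gene is called a DEG here when limma gives an adjusted p under 0.05 (Benjamini-Hochberg over all 13790 tested genes) and the change is at least 2-fold. In ΔE2, 1 of the 8 was a DEG (MCL1, downregulated), against 19.6% of all tested genes, 11.2% upregulated and 8.36% downregulated. In ΔSE12313-b 4 of the 8 were DEGs (MCL1, PMAIP1 and BCL2A1 downregulated, BAK1 upregulated), against 22.6% of all tested genes, 14.7% upregulated and 7.83% downregulated. Whatever the size of the change, 5 of the 8 passed the adjusted p in ΔE2, 2 of them higher and 3 lower, against 54.1% of all tested genes, 34.7% higher and 19.4% lower. In ΔSE12313-b 6 passed, 3 higher and 3 lower, against 59.4% of all tested genes, 43% higher and 16.4% lower. In ΔE2 the share of DEGs and of genes that passed was near that of all tested genes.

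The median log2 change of the 8 genes was -0.56 in ΔE2 and -0.21 in ΔSE12313-b, while that of all tested genes was 0.14 and 0.27. FPKM are scaled to all reads of a library, but not all of these fell on the genes. In replicate 1 of control, ΔE2 and ΔSE12313-b, 8151528 of 12696175, 13374180 of 19101112 and 12588452 of 16085524 reads did, respectively. This share was lower in both controls than in any clone, and its part in the general shift was not tested. The shift also enters each change, and centring each library on its median log2 ratio takes it out. The clones did not overlap with the control libraries in 6 of the 8 genes in ΔE2 and in 8 of 8 in ΔSE12313-b. This was also so for 73.5% and 75.3% of all tested genes, so that a gap between clones and controls was common in these libraries. Both deletions are measured against the same 2 control libraries, so agreement between them is no independent repeat.

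**Figure D1:**
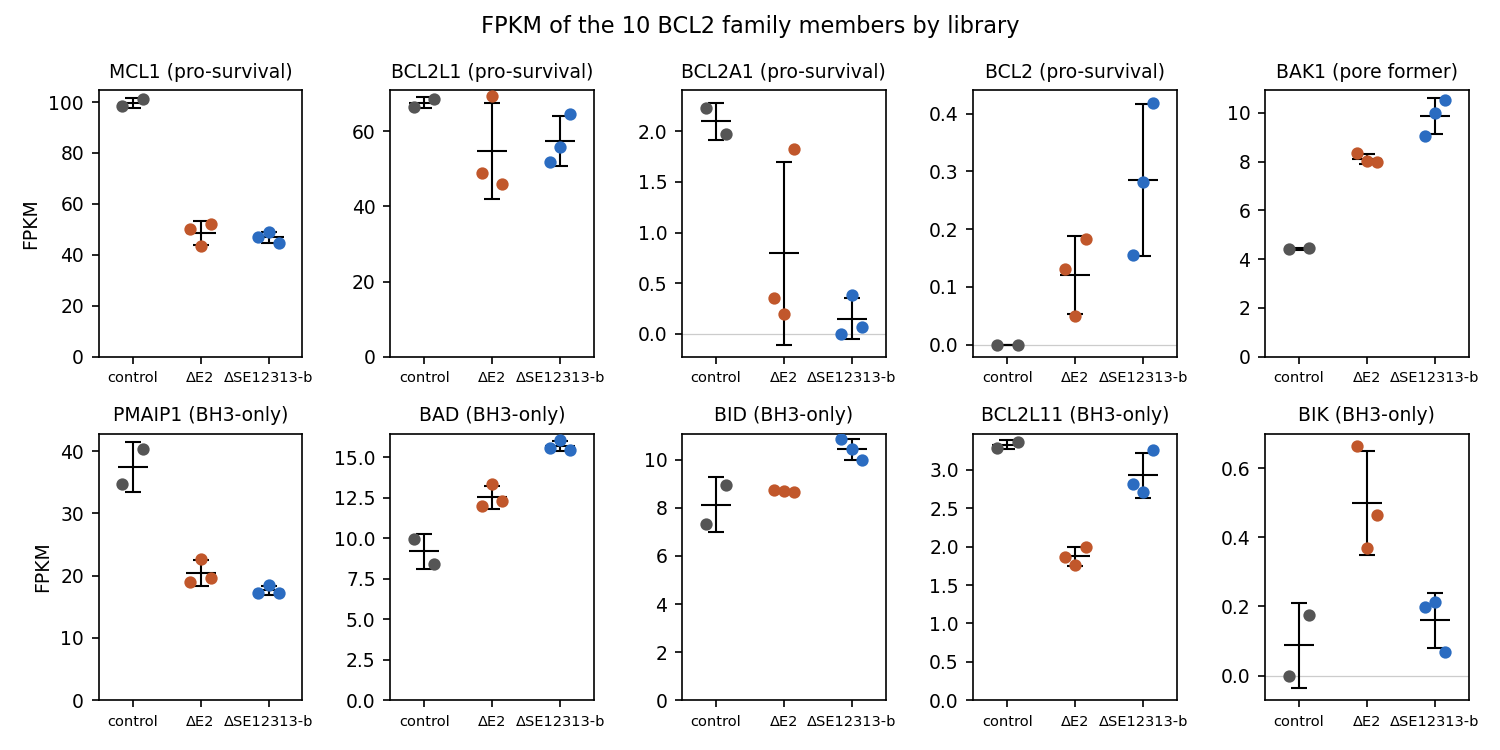
FPKM of each of the 10 genes (y axis, linear, one scale per panel) in the 2 control libraries, the 3 ΔE2 clones and the 3 ΔSE12313-b clones, with points for single libraries and bars for mean and SD. MCL1 and PMAIP1 lie lower and BAK1 and BAD higher in all 6 clones than in the controls, while 1 ΔE2 clone of BCL2A1 lies near the controls.

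MCL1, which sequesters BAK1 and has a short-lived protein, was the most abundant of the 10 genes in the control, above 97.5% of all tested genes. Its level was 98.3 and 101 FPKM in the control libraries, 50.3, 43.4 and 52.0 FPKM in the ΔE2 clones, and 47.0, 49.1 and 44.7 FPKM in the ΔSE12313-b clones. All 6 clones lay far below both controls, and the clones of both deletions overlapped. MCL1 fell by 1.04 on the log2 scale in ΔE2 (SE 0.091, limma adjusted p = 6.09e-05) and by 1.09 in ΔSE12313-b (SE 0.091, limma adjusted p = 3.77e-05). The change in ΔE2 sits close to 2-fold, and without ΔE2 replicate 2, the lowest clone, it was -0.96. The difference between the deletions was 0.05, with a 95% interval from -0.14 to 0.23 (limma adjusted p = 0.714).

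MCL1 has 3 exons (chromosome 1, 150547027 to 150552214 on the minus strand of GRCh37), and RNA that skips the middle exon encodes a short form which promotes death instead of survival. The 3 transcripts listed for it gave nearly the same log2 change, -1.04 each in ΔE2 and between -1.06 and -1.09 in ΔSE12313-b. They share most of their reads. The middle exon of 248 bases (150550720 to 150550967) lies between the splice sites below, shown because the reads on this exon are what tells the long from the short form. Capitals mark the AG of the acceptor and the GT of the donor.
MCL1 acceptor before the middle exon, chr1:150550956-150550979, minus strand: tttctttctcAGgcatgcttcgga
MCL1 donor after the middle exon, chr1:150550708-150550731, minus strand: caaagaggctggGTaagtttgcct

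The reads on the middle exon were taken as the transcript with it minus the transcript without it, which gave 429 and 462 reads in the control, 391, 258 and 259 in ΔE2 and 285, 221 and 266 in ΔSE12313-b. Per base, this was 1.59 ± 0.131, 1.65 ± 0.142 and 1.52 ± 0.186 times the density over the transcript without this exon in the control, ΔE2 and ΔSE12313-b, respectively (SD, n = 2, 3 and 3). These ranges overlap, so no shift of the middle exon relative to the rest of MCL1 could be seen beyond the spread of the libraries.

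BCL2L1 encodes BCL-XL and was the other abundant pro-survival gene, above 95.9% of all tested genes in the control. Its level was 66.6 and 68.7 FPKM in the control, 49.0, 69.5 and 46.0 FPKM in ΔE2, and 51.9, 55.7 and 64.8 FPKM in ΔSE12313-b. ΔE2 replicate 2 lay above both controls while the other two lay well below, and all ΔSE12313-b clones lay below. The log2 change was -0.33 in ΔE2 (SE 0.175, limma adjusted p = 0.149) and -0.24 in ΔSE12313-b (SE 0.175, limma adjusted p = 0.266), and neither passed. Without ΔE2 replicate 2 the change in ΔE2 was -0.51 (limma adjusted p = 0.00736). With each library centred, both deletions passed, at -0.48 (limma adjusted p = 0.0494) and -0.53 (limma adjusted p = 0.0350). The deletions differed by -0.09, with a 95% interval from -0.45 to 0.28.

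BCL2L1 (chromosome 20, 30252255 to 30310355, minus strand) makes its long and short form from a pair of donor sites in one exon, the long form being pro-survival and the short form pro-death. The sites lie 189 bases apart and are shown because only the stretch between them separates the forms. Capitals mark the GT.
BCL2L1 short-form donor, chr20:30309635-30309658, minus strand: agctttgaacagGTagtgaatgaa
BCL2L1 long-form donor, chr20:30309446-30309469, minus strand: aacggcggctggGTaagaaccaag

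The stretch between both donors held 188 and 146 reads in the control, 238, 320 and 117 in ΔE2, and 224, 215 and 255 in ΔSE12313-b, taken as the long-form transcript minus the short-form transcript. Its density was 1.13 ± 0.195, 1.36 ± 0.287 and 1.51 ± 0.0549 times that of the short-form transcript in the control, ΔE2 and ΔSE12313-b, respectively (SD, n = 2, 3 and 3). All 3 ΔSE12313-b clones, from 1.45 to 1.56, lay above both controls, at 0.988 and 1.26, and the ΔE2 clones overlapped with the controls. This ratio was not tested. The stretch also lies within 898 bases of exon that BCL2L1 shares with ABALON, an antisense non-coding RNA, which was at or under 0.154 FPKM in every library.

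The 4 pro-survival genes summed to 167 and 172 FPKM in the control, 99.8, 113 and 100 FPKM in ΔE2, and 99.1, 106 and 110 FPKM in ΔSE12313-b. No clone came near the controls. MCL1 made up 58.8% of this sum in both control libraries, 50.4%, 38.3% and 52.0% in ΔE2 and 47.4%, 46.6% and 40.6% in ΔSE12313-b. BCL2L1 stood at 0.677 and 0.680 of MCL1 in the control, but at 0.975, 1.60 and 0.884 of it in ΔE2 and at 1.11, 1.13 and 1.45 in ΔSE12313-b, so that BCL2L1 was the more abundant of the pair in 4 of the 6 clones. In each deletion the clone with the most BCL2L1 (ΔE2 replicate 2 and ΔSE12313-b replicate 3) had the least MCL1. These same clones were the highest of their deletion for 2759 of the 13790 tested genes.

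**Figure D2:**
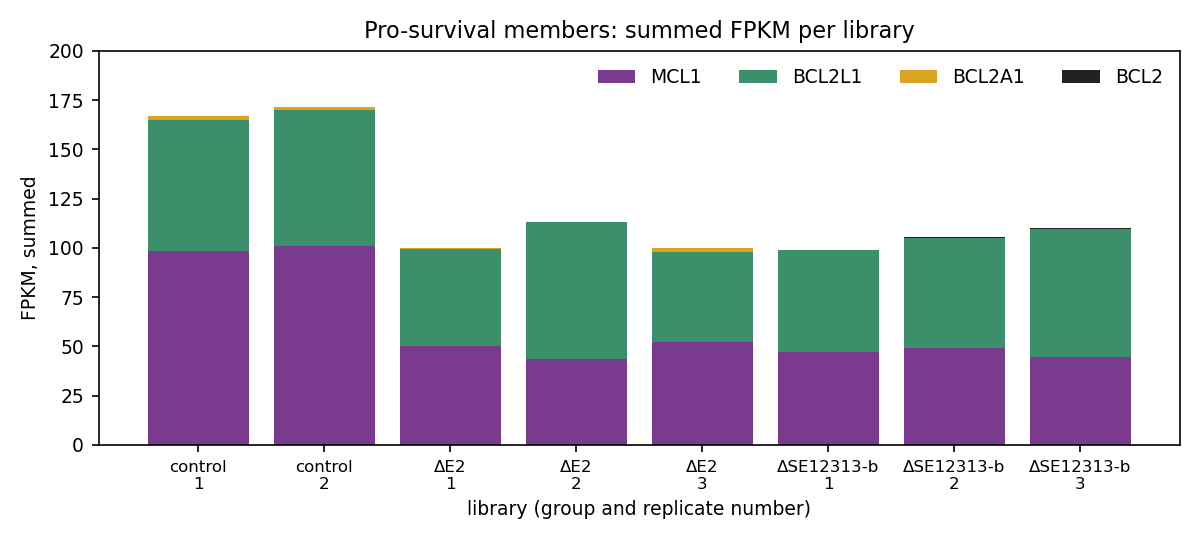
Summed FPKM (y axis, from 0) of the 4 pro-survival genes in each of the 8 libraries, stacked by gene. The controls reach 167 and 172 FPKM and the clones between 99.1 and 113 FPKM, and the share of MCL1 is smallest in ΔE2 replicate 2, at 38.3%.

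BCL2A1, a target of NF-kB that encodes A1, was a low-level gene with a large spread between clones. Its level was 2.23 and 1.97 FPKM in the control (25 and 21 reads), 0.356, 0.198 and 1.83 FPKM in ΔE2 (6, 3 and 22 reads), and 0, 0.382 and 0.071 FPKM in ΔSE12313-b (0, 5 and 1 reads). All ΔSE12313-b clones lay far below the controls, whereas ΔE2 replicate 3 kept close to the control level. In ΔSE12313-b BCL2A1 fell by 3.44 on the log2(FPKM + 0.1) scale (SE 0.879, limma adjusted p = 0.0103), and in ΔE2 the change was -1.78 (SE 0.879, limma adjusted p = 0.121).

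At so few reads the size of the BCL2A1 change rests on the pseudocount and on single libraries. In ΔSE12313-b it ran from -4.95 with a pseudocount of 0.01 to -1.44 with a pseudocount of 1. Without control replicate 1 it was -3.36 (limma adjusted p = 0.0629), without control replicate 2 it was -3.53 (limma adjusted p = 0.0541), and without ΔSE12313-b replicate 2 it was -4.07 (limma adjusted p = 0.00601). In ΔE2, BCL2A1 became a DEG without replicate 3, at -2.58 (limma adjusted p = 0.0272), and with voom on the recovered reads, at -2.05 (adjusted p = 0.0345). The deletions differed by 1.66, with a wide 95% interval from -0.15 to 3.48 (limma adjusted p = 0.159). Without ΔE2 replicate 3 this difference was 0.87, and without ΔSE12313-b replicate 2 it was 2.29, and neither passed (limma adjusted p = 0.407 and 0.0765).

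BCL2, the founding member of the family, was barely transcribed. The shorter of its 2 listed transcripts, which was the higher one, was at 0 in both controls, at 0.131, 0.049 and 0.183 FPKM in ΔE2 (3, 1 and 3 reads), and at 0.155, 0.281 and 0.419 FPKM in ΔSE12313-b (3, 5 and 8 reads). Every clone had at least 1 read and both controls had none. The mean of ΔSE12313-b was at least 1.41-fold higher than the control, computed with a floor of 3 reads in each control library. This does not hold for each clone, as ΔSE12313-b replicate 1 had 3 reads. ΔE2 and the control were both at the floor. On the longer transcript the controls had 1 read each, the ΔE2 clones 5, 2 and 5, and the ΔSE12313-b clones 3, 6 and 9. With the filter lowered to any FPKM above 0 in 2 libraries, the adjusted p by limma was 0.0435 in ΔE2, 0.00408 in ΔSE12313-b and 0.139 between the deletions. With both controls at 0, BCL2 could meet this filter only through the clones, so these values are a description alone. The floor covers counting error only.

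BAK1 (chromosome 6, 33540323 to 33548070, minus strand), which sits in the outer membrane and forms the pore once released, was higher in every clone. Its level was 4.40 and 4.44 FPKM in the control, 8.34, 8.02 and 7.97 FPKM in ΔE2, and 9.05, 10.0 and 10.5 FPKM in ΔSE12313-b. The groups did not overlap, and the spread within each was small, with a mean of 4.42 ± 0.0276, 8.11 ± 0.201 and 9.86 ± 0.744 FPKM in the control, ΔE2 and ΔSE12313-b, respectively (SD, n = 2, 3 and 3). BAK1 rose by 0.86 on the log2 scale in ΔE2 (SE 0.089, limma adjusted p = 0.000141) and by 1.14 in ΔSE12313-b (SE 0.089, limma adjusted p = 2.71e-05). With each library centred, the rise was 0.70 and 0.85, and BAK1 was then under 2-fold in both deletions. It shares 91 exon bases with GGNBP1 on the opposite strand, which was at or under 0.074 FPKM.

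BAX, the other pore former, was far more abundant than BAK1, with a mean of 71.9 ± 2.11, 90.7 ± 5.38 and 99.1 ± 7.61 FPKM in the control, ΔE2 and ΔSE12313-b, respectively (SD, n = 2, 3 and 3). It rose by 0.33 in ΔE2 (limma adjusted p = 0.0125) and by 0.46 in ΔSE12313-b (limma adjusted p = 0.00235), and with each library centred it did not pass in either, at 0.17 in both (limma adjusted p = 0.138 and 0.141). BAK1 stood at 0.0624 and 0.0604 of BAX in the control, at 0.0886, 0.0858 and 0.0943 in ΔE2, and at 0.0946, 0.107 and 0.0976 in ΔSE12313-b. The ratio does not depend on the scaling of the libraries, and it was higher in all 6 clones than in either control.

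Among the BH3-only genes, PMAIP1 was the most abundant, at 34.7 and 40.4 FPKM in the control, 18.9, 22.8 and 19.6 FPKM in ΔE2, and 17.2, 18.5 and 17.2 FPKM in ΔSE12313-b. All clones lay well below both controls, and the ΔSE12313-b clones lay just under the ΔE2 clones. PMAIP1 fell by 0.87 on the log2 scale in ΔE2 (SE 0.105, limma adjusted p = 0.000298) and by 1.08 in ΔSE12313-b (SE 0.105, limma adjusted p = 7.86e-05). Without control replicate 2, the higher of the controls, the change in ΔSE12313-b was -0.97, and with each library centred that in ΔE2 was -1.03.

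NOXA, the product of PMAIP1, pairs with MCL1, and both RNAs were lower in the clones. PMAIP1 stood at 0.376 ± 0.0329, 0.426 ± 0.0854 and 0.376 ± 0.00992 of MCL1 in the control, ΔE2 and ΔSE12313-b, respectively (SD, n = 2, 3 and 3), and these ranges overlapped. Within the summed FPKM of the 5 BH3-only genes, PMAIP1 made up 62.8% and 65.9% in the control, 44.8%, 48.5% and 45.6% in ΔE2, and 36.9%, 38.6% and 37.4% in ΔSE12313-b. This sum was 58.3 ± 4.23, 44.04 ± 2.54 and 46.8 ± 0.965 FPKM in the control, ΔE2 and ΔSE12313-b, respectively (SD, n = 2, 3 and 3). It was thus lower in both deletions, mainly through PMAIP1, whose mean went from 37.5 to 20.4 and 17.6 FPKM. BCL2L11 also had lower means, going from 3.33 to 1.87 and 2.93 FPKM. Mean BAD went up from 9.20 to 12.5 and 15.7 FPKM, and mean BID from 8.14 to 8.70 and 10.4 FPKM. The BH3-only genes therefore did not fall as a class.

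BAD, which binds BCL-XL and so frees the pore formers and is switched off by phosphorylation, moved the other way. Its level was 9.97 and 8.42 FPKM in the control, 12.002, 13.3 and 12.3 FPKM in ΔE2, and 15.5, 16.0 and 15.5 FPKM in ΔSE12313-b. The groups stood apart in the order control, ΔE2, ΔSE12313-b. BAD rose by 0.45 on the log2 scale in ΔE2 (SE 0.093, limma adjusted p = 0.00474) and by 0.77 in ΔSE12313-b (SE 0.093, limma adjusted p = 0.000251), both under 2-fold. In ΔE2 the rise was 0.23 after quantile normalization and no longer passed (limma adjusted p = 0.0838).

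Relative to BCL2L1, the RNA of its main partner, BAD stood at 0.136 ± 0.0191, 0.234 ± 0.0386 and 0.275 ± 0.0320 in the control, ΔE2 and ΔSE12313-b, respectively (SD, n = 2, 3 and 3). BAD shares 404 of its 1708 exon bases with GPR137 on the opposite strand, which was at 7.03 to 9.89 FPKM. Library preparation kept the strand, but whether it was used in counting is not given in the sources used here, so reads of both genes may have been mixed on the shared bases. The genes of 11q, the arm that holds BAD, had a median that departed from that of all genes by 0.16 on the log2 scale in ΔE2 and -0.27 in ΔSE12313-b. The change of BAD lay above that of 57.1% of the other tested protein-coding genes of this arm in ΔE2 and of 84.5% in ΔSE12313-b. The part of the arm in the change of BAD was not tested.

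BID, which caspase-8 cuts into an activator of BAK1 and BAX, kept to the control level in ΔE2. Its level was 7.34 and 8.94 FPKM in the control, 8.73, 8.72 and 8.66 FPKM in ΔE2, and 10.9, 10.5 and 9.99 FPKM in ΔSE12313-b. The ΔE2 clones lay between the controls, and the ΔSE12313-b clones lay above both. The log2 change was 0.10 in ΔE2 (SE 0.099, limma adjusted p = 0.410), and BID rose by 0.36 in ΔSE12313-b (SE 0.099, limma adjusted p = 0.0138). That rise did not pass with each library centred, at 0.07 (limma adjusted p = 0.546), or without control replicate 1, the lower of the controls, at 0.22 (limma adjusted p = 0.120). The deletions differed by -0.26 (limma adjusted p = 0.0652), and this passed without control replicate 1 or 2 (limma adjusted p = 0.0477 and 0.0485).

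BCL2L11 encodes BIM, a strong activator that binds all pro-survival proteins, and it differed between the deletions. Its level was 3.28 and 3.37 FPKM in the control, 1.87, 1.76 and 1.995 FPKM in ΔE2, and 2.81, 2.72 and 3.26 FPKM in ΔSE12313-b. The ΔE2 clones lay below every other library, and the highest ΔSE12313-b clone came close to the controls. BCL2L11 fell by 0.80 on the log2 scale in ΔE2 (SE 0.127, limma adjusted p = 0.00124), and the change in ΔSE12313-b was -0.18 (SE 0.127, limma adjusted p = 0.248). With each library centred, the change in ΔSE12313-b was -0.47 and passed (limma adjusted p = 0.0134). Tested directly, ΔE2 minus ΔSE12313-b was -0.62 on the log2 scale (SE 0.114, limma adjusted p = 0.00702), and -0.49 with each library centred (limma adjusted p = 0.0181).

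Of the 18 transcripts listed for BCL2L11 (chromosome 2, from 111878491 on the plus strand), 16 reach a last exon that holds 727 bases (111922481 to 111923207) also covered by MIR4435-2HG, a long non-coding RNA on the opposite strand. MIR4435-2HG was at 7.25 and 6.49 FPKM in the control, 31.4, 25.7 and 32.9 FPKM in ΔE2, and 38.7, 40.1 and 37.6 FPKM in ΔSE12313-b, and it was higher in all 6 clones than in the controls. It was also higher in ΔSE12313-b than in ΔE2. Reads of MIR4435-2HG may have been mixed with those of BCL2L11 on the shared bases, as for BAD, and this was not tested. A transcript of 716 bases that ends before this exon was at 1.59 ± 0.536, 0.974 ± 0.362 and 1.63 ± 0.365 FPKM in the control, ΔE2 and ΔSE12313-b, respectively (SD, n = 2, 3 and 3), from 7 to 22 reads per library. ΔE2 had the lowest mean here as well, while the control and ΔSE12313-b changed places, and the ranges overlap.

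BIK, a BH3-only gene of the endoplasmic reticulum, was close to silent. Its level was 0 and 0.175 FPKM in the control (0 and 2 reads), 0.664, 0.370 and 0.466 FPKM in ΔE2 (12, 6 and 6 reads), and 0.197, 0.214 and 0.067 FPKM in ΔSE12313-b (3, 3 and 1 reads). The ΔE2 clones lay above every other library. Computed with a floor of 3 reads per library, the mean of ΔE2 was at least 1.95-fold higher than the control and at least 2.46-fold higher than ΔSE12313-b. ΔSE12313-b and the control were both at the floor. When the filter was lowered to any FPKM above 0 in 2 libraries, BIK had an adjusted p by limma of 0.0185 in ΔE2, 0.352 in ΔSE12313-b and 0.0912 between the deletions. BIK was at 0 in 1 control, so it could meet this filter only with the help of clones, and these values are a description.

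Between the deletions, 0 of the 8 tested genes were DEGs by limma, against 4.23% of all tested genes, 1.6% higher and 2.63% lower in ΔE2. Voom on the recovered reads also gave 0, and at an unadjusted p under 0.05 4 of the 8 differed, against 38.8% of all tested genes. At an adjusted p under 0.05, BCL2L11, BAD and BAK1 were lower in ΔE2 than in ΔSE12313-b and 0 genes were higher, against 26% of all tested genes, 19.3% lower and 6.69% higher. The clones of the deletions did not overlap in 5 of the 8 genes, against 40.8% of all tested genes. BAD differed by -0.32 (SE 0.084, limma adjusted p = 0.0258) and BAK1 by -0.28 (SE 0.080, limma adjusted p = 0.0378). With each library centred these became -0.19 (limma adjusted p = 0.140) and -0.15 (limma adjusted p = 0.242), and PMAIP1 then passed in the other direction, at 0.34 (limma adjusted p = 0.0347). The difference in BAK1 also missed the threshold when any single library but ΔSE12313-b replicate 1 was left out (limma adjusted p up to 0.103), and that in BAD when any of ΔE2 replicates 1 and 3 or ΔSE12313-b replicates 1 and 2 was left out (limma adjusted p up to 0.0796). BCL2L11 passed in each of these fits, none of which left out the bases it shares with MIR4435-2HG.

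**Figure D3:**
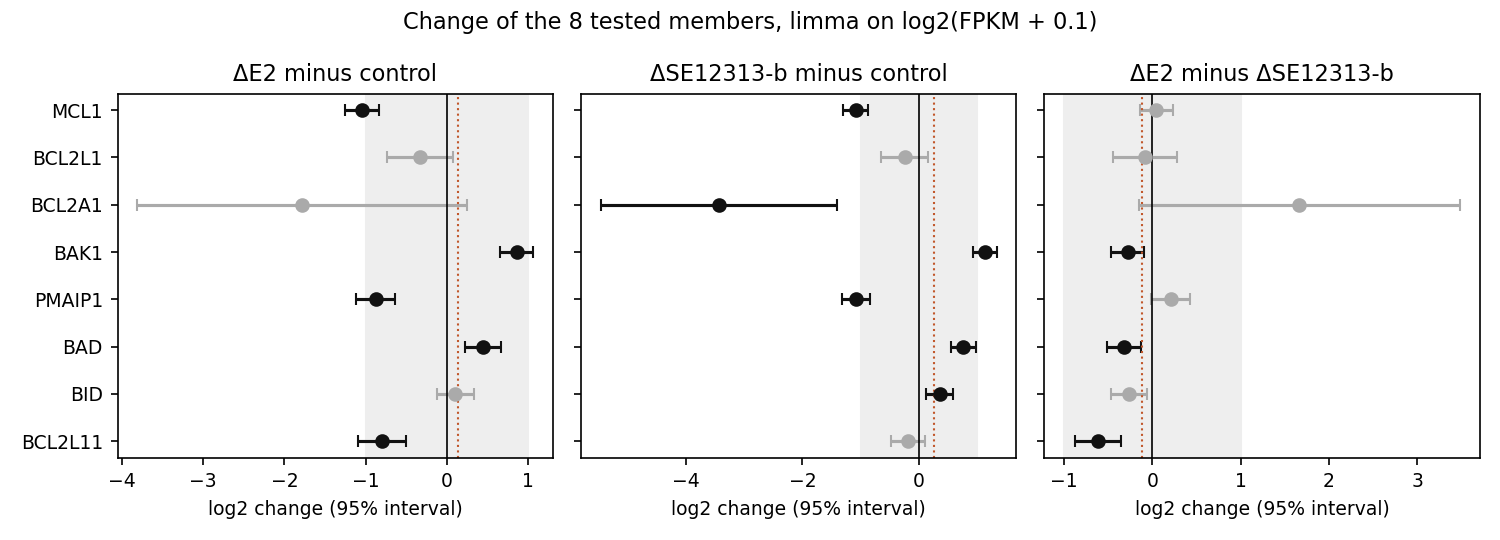
Log2 change with its 95% interval (x axis) of the 8 tested genes in ΔE2 and ΔSE12313-b against control and in ΔE2 against ΔSE12313-b, from limma on log2(FPKM + 0.1). Black points have an adjusted p under 0.05, the grey band spans changes under 2-fold, and the dotted line is the median of all tested genes at 0.14, 0.27 and -0.11; BCL2A1 has the widest intervals, and BCL2L11 the largest difference among those that pass between the deletions.

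Promoters of 8 of the 10 genes, 14 in all, were found in the RefSeq promoter table (GRCh38.p14, 250 bases before to 50 after each start) and were read for 11 short motifs on both strands. A GC box (GGGCGG) was in 10 of the 14, against 45.0% of all 35116 promoters, and a CCAAT box (CCAAT) in 4, against 34.6%. A TATA box (TATAAA) was in the promoters of BCL2A1 and BCL2L1, against 11.5% of all promoters. The E-box CACGTG was in 2 promoters of BID that overlap and share this site, against 7.26%. The E2F core TTNGCGC was in 1 of BCL2L1, against 7.81%, and a CArG box in that of BCL2, against 1.29%. The AP-1 site TGANTCA, the CRE core TGACGTCA and the NF-kB site were in none of the 14, against 7.71%, 1.85% and 1.91% of all promoters. Promoters of BID and of BAD overlap with one another, so the same GC, CCAAT or E-box site was counted more than once. The 14 are therefore not independent, and their counts are a description beside the shares of all promoters. The letters of a motif can overlap with those of another, and a match is not a bound site.

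The windows below are from the promoters of BAK1, which rose, and of PMAIP1 and BCL2A1, which fell in ΔSE12313-b, and they show which letters matched. Each was matched in full to GRCh37. Capitals mark the motif, and distances are to the start in the promoter table. In BAK1 it is a single 10-base element of the p53 motif (in 6.63% of all promoters), 73 bases before that start. In PMAIP1 it is the GC box furthest upstream, read on the opposite strand, 146 bases before the start. In BCL2A1 it is the CARE motif TGATGNAA, which ATF4 is known to bind (in 3.62% of all promoters), 63 bases before the start. The TATA box of BCL2A1 ends just before this motif. Both BCL2A1 transcripts listed here start further upstream (80263643, minus strand), so the CARE motif and the TATA box lie inside their span.
BAK1 promoter, chr6:33548107-33548136, minus strand: aaagtgggcgGGACATGCTCctgggcctgg
PMAIP1 promoter, chr18:57567070-57567099, plus strand: cggggtacttccCCGCCCgcgtcccgcgtc
BCL2A1 promoter, chr15:80263583-80263612, minus strand: atattataaagTGATGCAAacagaaattcc

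Regulators of the 10 genes were read from a list of 13, of which 12 were tested. In ΔE2 4 were higher and 3 lower at an adjusted p under 0.05, where 34.7% of all tested genes were higher and 19.4% lower. In ΔSE12313-b 5 were higher and 4 lower, where 43% were higher and 16.4% lower. Their median log2 change was 0.05 in both deletions, against 0.14 and 0.27 for all tested genes. E2F1, a driver of S phase, rose from 1.37 ± 0.0707 FPKM in the control to 14.3 ± 1.88 and 15.6 ± 0.922 FPKM in the clones of ΔE2 and ΔSE12313-b (SD, n = 2, 3 and 3), by 3.28 and 3.42 on the log2 scale (limma adjusted p = 8.13e-07 and 6.42e-07). ATF4, the main factor of the integrated stress response, which is known to induce PMAIP1 and DDIT3, fell by 1.42 in ΔE2 and by 1.56 in ΔSE12313-b (limma adjusted p = 2.05e-05 and 1.03e-05). DDIT3, which is known to raise BIM, fell by 1.30 and 2.18 (limma adjusted p = 0.00223 and 0.000131), and it was 0.88 higher in ΔE2 than in ΔSE12313-b (limma adjusted p = 0.0191). NFKB1, which encodes a subunit of NF-kB, rose by 0.90 and 0.92 (limma adjusted p = 0.000650 and 0.000464). Genes of other NF-kB subunits moved in different directions. RELA had changes of -0.15 and -0.51 (limma adjusted p = 0.192 and 0.00189), and REL of 0.63 and 0.80 (limma adjusted p = 0.0205 and 0.00624). With each library centred, RELA passed as lower in both deletions (limma adjusted p = 0.0198 and 0.000221), and REL passed only in ΔSE12313-b (limma adjusted p = 0.0642 and 0.0474).

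Of 13 other genes of the BCL2 family, 9 were tested. At an adjusted p under 0.05, 2 were higher and 3 lower in ΔE2, and 4 were higher and 2 lower in ΔSE12313-b. This is close to the 54.1% and 59.4% of all tested genes that passed, and the median log2 change of the 9 genes was 0.0065 and 0.15, against 0.14 and 0.27. BMF, a BH3-only gene tied to loss of attachment, had the largest fall, from 2.13 ± 0.0148 FPKM in the control to 0.559 ± 0.463 and 0.232 ± 0.128 FPKM in the clones of ΔE2 and ΔSE12313-b (SD, n = 2, 3 and 3), by 1.98 and 2.82 on the log2 scale (limma adjusted p = 0.0175 and 0.00296). BCL2L12 rose by 1.01 and 1.23 (limma adjusted p = 0.00319 and 0.00100). BNIP3L, which marks mitochondria for autophagy, fell by 0.81 and 0.94 (limma adjusted p = 6.32e-05 and 2.25e-05), while its relative BNIP3 had a change of 0.24 in ΔE2 (limma adjusted p = 0.181) and rose by 0.77 in ΔSE12313-b (limma adjusted p = 0.00194). BBC3, the gene of PUMA, had changes of -0.57 and 0.02 (limma adjusted p = 0.0632 and 0.958). BCL2L2 had changes of -0.33, which passed, and -0.21 (limma adjusted p = 0.0395 and 0.156), and BCL2L13 of 0.16 and 0.40, of which the second passed (limma adjusted p = 0.296 and 0.0217). With each library centred, BCL2L13 did not pass in ΔSE12313-b (limma adjusted p = 0.430). BCL2L2 then passed in both deletions (limma adjusted p = 0.00866 and 0.00783), and BBC3 in ΔE2 (limma adjusted p = 0.0296). BOK had changes of 0.01 and 0.15 (limma adjusted p = 0.970 and 0.329). BCL2L10, HRK, BCL2L14 and BCL2L15 were too low to be tested.

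Downstream of the mitochondria, 15 of 16 genes of the apoptosome and the caspases were tested. In ΔE2 9 were higher and 1 lower at an adjusted p under 0.05, where 34.7% of all tested genes were higher and 19.4% lower. In ΔSE12313-b 10 were higher and 1 lower, where 43% were higher and 16.4% lower. The median log2 change was 0.62 and 0.81, against 0.14 and 0.27 for all tested genes. BIRC5, which encodes survivin and is known both as an inhibitor of apoptosis and as a mitotic gene, rose by 5.10 and 5.21 (limma adjusted p = 3.14e-07 and 2.89e-07), CASP2 by 1.04 and 1.07 (limma adjusted p = 3.61e-05 and 2.42e-05), CASP6 by 1.05 and 0.82 (limma adjusted p = 0.00534 and 0.0145), and APAF1, the scaffold of the apoptosome, by 1.03 and 0.93 (limma adjusted p = 0.000210 and 0.000276). With each library centred, these rises still passed except that of CASP6 in ΔSE12313-b (limma adjusted p = 0.0762).

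Of the death receptor arm 11 of 14 genes were tested, with 4 higher and 5 lower in ΔE2 and 5 higher and 1 lower in ΔSE12313-b at an adjusted p under 0.05. Of all tested genes 54.1% and 59.4% passed, the latter near the 6 of 11 here, and the median log2 change was 0.047 and 0.25, against 0.14 and 0.27. TNFRSF10D, a decoy receptor for TRAIL, fell by 1.32 and 1.20 (limma adjusted p = 9.96e-05 and 0.000126), and FAS rose by 1.01 and 0.97 (limma adjusted p = 0.00535 and 0.00564). CASP10 rose by 0.54 and 0.85 (limma adjusted p = 0.0269 and 0.00303), and TNFRSF10A, a receptor for TRAIL, fell by 0.77 in ΔE2 (limma adjusted p = 0.0246), with a change of -0.44 in ΔSE12313-b (limma adjusted p = 0.143). With each library centred, CASP10 did not pass in ΔE2 (limma adjusted p = 0.0775), and TNFRSF10A passed in ΔSE12313-b as well (limma adjusted p = 0.0304).

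All 7 genes for the turnover or anchoring of family proteins were tested, with 2 higher and 0 lower in ΔE2 and 3 higher and 1 lower in ΔSE12313-b at an adjusted p under 0.05. Of all tested genes 54.1% and 59.4% passed, the latter near the 4 of 7 here, and the median log2 change was 0.082 and 0.19, against 0.14 and 0.27. DYNLL1, a dynein light chain that can hold BIM at the cytoskeleton, rose by 0.90 and 1.04 (limma adjusted p = 0.000123 and 4.75e-05). HUWE1, a ligase for MCL1, rose by 0.60 and 0.69 (limma adjusted p = 0.0213 and 0.0106). USP9X, which stabilizes MCL1, had a change of 0.31 in ΔE2 (limma adjusted p = 0.0636) and rose by 0.45 in ΔSE12313-b (limma adjusted p = 0.0134). FBXW7, another ligase for MCL1, had a change of 0.07 in ΔE2 (limma adjusted p = 0.680) and fell by 0.50 in ΔSE12313-b (limma adjusted p = 0.0169). With each library centred, HUWE1 passed in neither deletion (limma adjusted p = 0.0680 and 0.0899), and USP9X did not pass in ΔSE12313-b (limma adjusted p = 0.280). The rise of DYNLL1 in both deletions and the fall of FBXW7 in ΔSE12313-b still passed.

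**Figure D4:**
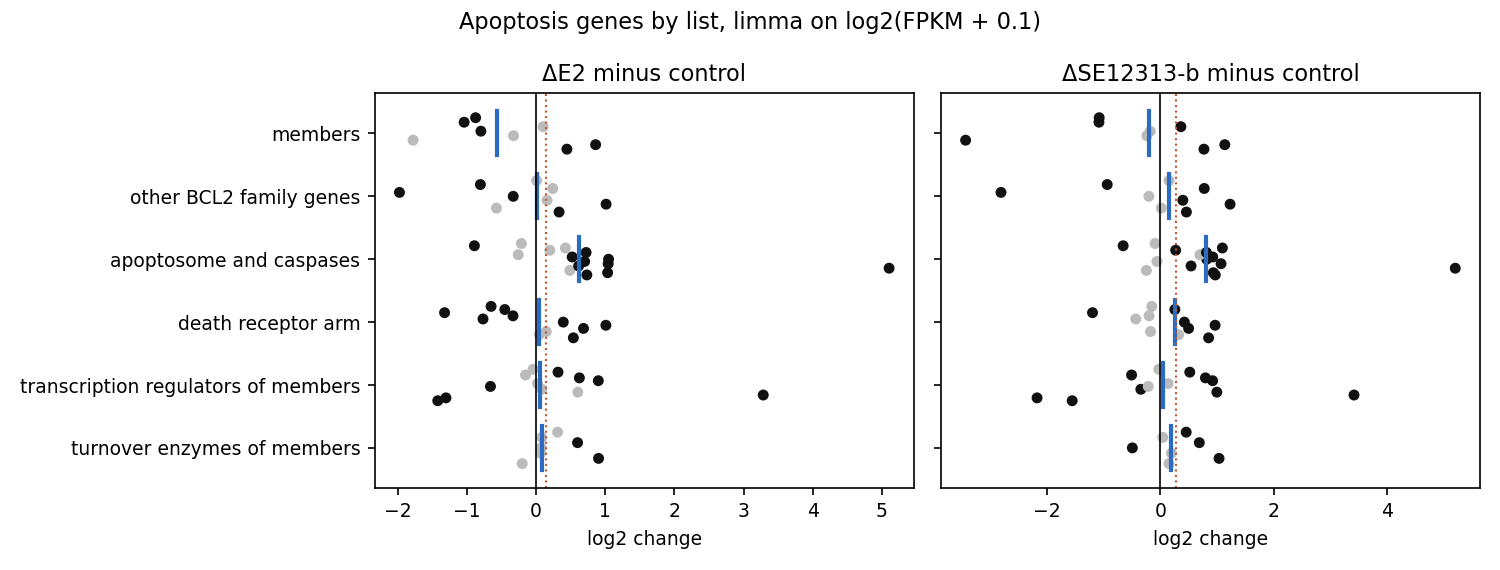
Log2 change (x axis) of each tested gene in 6 lists, in ΔE2 and in ΔSE12313-b against control, from limma on log2(FPKM + 0.1), with black points for an adjusted p under 0.05, blue bars for the median of a list and a dotted line for the median of all tested genes (0.14 and 0.27). The 10 genes have the lowest median of the 6 lists (-0.56 and -0.21), the apoptosome and caspases the highest (0.62 and 0.81), and BIRC5 and E2F1 lie far to the right.

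Genes with a pattern over the 8 libraries like that of a member were named for the 3 tested members with the largest mean change, by Pearson's r of log2(FPKM + 0.1). For BCL2A1 these were ZNF23 (r = 0.973), USPL1 (r = 0.962) and TRAF1 (r = 0.961), and only 6 genes reached an r over 0.95. For MCL1 they were TMEM9B-AS1 (r = 0.996), CHAC1 (r = 0.995) and SPRY2 (r = 0.994), with 238 genes over 0.95. For BAK1 they were TIMM17A (r = 0.998), BTBD6 (r = 0.997) and MRPS9 (r = 0.997), with 1038 genes over 0.95. All libraries share the split between controls and clones, which sets most of these values.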

How the data were processed

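Per the labels and the methods, the authors prepared strand-specific libraries from rRNA-depleted RNA, trimmed reads with Trim Galore 0.4.4 and mapped them to GRCh37 with STAR 2.5.4b, and they deposited 1 table of FPKM per RefSeq transcript. The methods name featureCounts with Gencode genes for the authors' own counts, which were not used here. This table lists RefSeq transcripts instead, and its counter, RefSeq release and use of strand are not given in the sources used here. For each symbol the transcript with the highest mean was kept. FPKM times length fell on whole reads (100% of values checked, within 0.1 read), used for depth, floors (3 reads) and 1 alternative. The 13790 genes that reached an FPKM of 0.5 in 2 or more libraries were tested in R 4.3.3 with limma 3.58.1 on log2(FPKM + 0.1) (3 groups, trend, two-sided, Benjamini-Hochberg over all tested genes). The steps were tested on simulated data. Figures and sequence searches used Python 3.11.15.

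The 10 genes and the lists were chosen with earlier results of these data known. Of each list the 4 tested genes with the largest mean absolute change were named, and every tested gene of the BCL2 family. RELA and REL were added beside NFKB1. Alternatives were other pseudocounts, filters, scalings, thresholds, transcripts and variance models, a block for the replicate number, only the groups compared, and each library left out. The voom fit was added after seeing the data. Same-numbered libraries of different groups had deviations with r from -0.080 to 0.107, so numbers were not taken as pairs.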

Additional observations from a re-analysis of the deposited data

Results flagged for a closer look

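For 3 of the 8 tested genes the effect differed between the deletions by a direct test of ΔE2 against ΔSE12313-b (limma, Benjamini-Hochberg over all tested genes), and each was lower in ΔE2. BCL2L11 differed by -0.62 on the log2 scale (SE 0.114, limma adjusted p = 0.00702), with all 3 ΔE2 clones below all 3 ΔSE12313-b clones. The transcript tested shares 727 bases with MIR4435-2HG on the opposite strand, and mixing of reads there was not tested. BAD differed by -0.32 (SE 0.084, limma adjusted p = 0.0258) and BAK1 by -0.28 (SE 0.080, limma adjusted p = 0.0378), also without overlap, and neither passed with each library centred. Over all tested genes 19.3% were lower in ΔE2 at this threshold.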

How the results depend on the processing

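Between 478 and 669 DEGs separated the deletions when 1 library was left out, against 583 with all 8; ΔE2 ran from 2364 to 2880 (2697 with all 8) and ΔSE12313-b from 2767 to 3186 (3112 with all 8). Among the members, DEGs then ran from 0 to 2 in ΔE2 (1 with all 8; 0 without ΔE2 replicate 2, 2 without ΔE2 replicate 3) and from 2 to 4 in ΔSE12313-b (4 with all 8; 2 without control replicate 2), with 0 between the deletions. A pseudocount of 1 gave 1718, 2004 and 240 DEGs in ΔE2, in ΔSE12313-b and between them, and a threshold of 1.5-fold 5054, 5802 and 1631, while an adjusted p under 0.01 left 383 between them. In ΔE2 the members had 3 DEGs with every gene above 0 in at least 2 libraries, 2 each with centring, quantile normalization and voom, and 4 at 1.5-fold, where 1 was found between the deletions. The DEGs added by the lowered filter were BCL2 and BIK, which could meet it only with the help of clones. With centring, ΔE2 had 1170 higher and 1464 lower DEGs (1544 and 1153 without) and ΔSE12313-b 1201 and 1570 (2032 and 1080 without). The direction turned for BID in ΔE2 with centring (-0.056) and quantile normalization (-0.098), and it ran from -0.039 to 0.24 with 1 library left out. It turned for BCL2L1 between the deletions with centring (0.044) and quantile normalization (0.080), and ran from -0.27 to 0.029 with 1 library left out. For MCL1 between the deletions it ran from -0.0051 to 0.13. None of these values passed before or after. The cause was not tested. A replicate block for the numbers in the labels, which do not pair the libraries, gave 2530, 2962 and 523 DEGs and left the members' DEGs at 1, 4 and 0, with adjusted p by limma of 0.0922 for BAK1 and 0.0746 for BAD between the deletions. Depth limits BCL2, BIK and BCL2A1, which rest on 0 to 25 reads per library.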
